A study of Mus musculus with 22 samples.

Results

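The Tcstv family examined here consists of the 4 genes Tcstv1, Tcstv3, AF067061 and BC147527, taken by name from the 55487 genes that both deposited tables list. RNA was measured in mouse embryonic stem cells of the line Dux-/-, in which the gene for the transcription factor DUX is deleted, and this deletion was shared by every group, the controls included. Each line carried an inducible transgene for the red fluorescent protein mCherry, either by itself or as a tag on DUX or a derivative of DUX, and every group received 0.25 ug/mL doxycycline for 12 hours after a 24-hour recovery from plating. In the first table, called the chimera table, 14 libraries fall into 7 groups, namely mCherry (the tag alone), FL (full-length DUX), C1+14, C3+14, C1C3a, C1C3b and C1C3c. In the second, the deletion table, 8 libraries fall into 4 groups: FL again, with the same reads, C12345delt14, deltC12345+14 and deltC12345delt14. Each group has 2 replicates, and the remaining group of the series, C3delt14, was not analysed here. The labels do not spell out the parts C1 to C5 and 14, nor what separates a, b and c, and they do not say whether a line is 1 clone or how many copies of the transgene it holds.

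Tcstv stands for 2-cell-stage, variable group. These genes form a cluster of near copies that is transcribed in the 2-cell embryo, the stage at which the mouse embryo first switches on its own genome, and in the rare embryonic stem cells that pass through a 2-cell-like state. Tcstv1 and Tcstv3 are known to lengthen telomeres when they are overexpressed in embryonic stem cells. DUX binds DNA through a pair of homeodomains and activates many genes of that stage, and its carboxy-terminal part is needed for activation.

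All 4 genes lie on chromosome 13 (GRCm38) within 425 kb and are annotated as protein-coding. Tcstv1 (ENSMUSG00000096284) spans 119893388 to 119894785 on the minus strand. Tcstv3 (ENSMUSG00000095821) spans 120316878 to 120318178, AF067061 (ENSMUSG00000095071) 120263114 to 120264517 and BC147527 (ENSMUSG00000094796) 120300392 to 120308779, all on the plus strand. Their coding sequences hold 516, 510, 516 and 504 bases (Tcstv1, Tcstv3, AF067061, BC147527), each within 1 coding exon. The annotated gene start lies 691, 689 and 688 bases before the start codon in Tcstv1, Tcstv3 and AF067061, but 7754 bases before it in BC147527, which has 5 exons where the others have 2. The first 150 coding bases are shown because they let a reader see both how alike the genes are and which of them differ. Capitals mark bases that were not matched to an identical base of Tcstv3 in a gapped alignment of the whole coding sequences. Gaps are not drawn, so a letter need not stand under its partner. Bases that only Tcstv3 has are not marked. The stretches cover chromosome 13 positions 119893945 to 119894094 (minus strand) for Tcstv1, 120317567 to 120317716 for Tcstv3, 120263802 to 120263951 for AF067061 and 120308146 to 120308295 for BC147527.
Tcstv1: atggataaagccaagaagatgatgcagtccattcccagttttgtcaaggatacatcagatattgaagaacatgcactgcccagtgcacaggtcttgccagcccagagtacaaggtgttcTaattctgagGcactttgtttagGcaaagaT
Tcstv3: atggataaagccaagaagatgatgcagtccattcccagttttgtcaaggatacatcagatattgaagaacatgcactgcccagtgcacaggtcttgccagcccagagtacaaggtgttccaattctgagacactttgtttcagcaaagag
AF067061: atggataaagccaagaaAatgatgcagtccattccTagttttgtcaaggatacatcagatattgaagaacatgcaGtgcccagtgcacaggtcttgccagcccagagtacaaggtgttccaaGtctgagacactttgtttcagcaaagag
BC147527: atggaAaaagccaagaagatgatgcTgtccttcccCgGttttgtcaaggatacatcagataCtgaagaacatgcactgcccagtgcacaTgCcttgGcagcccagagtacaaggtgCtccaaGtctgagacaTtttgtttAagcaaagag
In this stretch Tcstv1 and AF067061 each had 4 capitals and BC147527 had 12. Over the whole coding sequence Tcstv1 and AF067061 were 95.4% identical, Tcstv3 and AF067061 94.8%, and Tcstv1 and Tcstv3 93.6%. BC147527 stood farther off, with 90.5% identity to Tcstv3, 88.1% to AF067061 and 87.5% to Tcstv1. The longest identical run in 2 coding sequences was 119 bases, between Tcstv1 and Tcstv3. BC147527 shared at most 54 bases in a row with another member.

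The likeness bears on the counts. Of the 50-base stretches of the transcripts, 31.4% of those of Tcstv3, 23.4% of AF067061, 15% of Tcstv1 and 14.3% of BC147527 occur in at least 1 other gene. Tcstv3 and Tcstv1 share 131 such stretches with each other, and BC147527 shares 215 of its 1546 with Gm8953. With other genes of the cluster, AF067061 shares 179 (Gm21761) and 139 (Gm20767). Gm21818, also of the cluster, shares 165 with Tcstv1 and 139 with Tcstv3. How reads that match several genes were counted is not given in the sources used here, so the level of each gene is uncertain to that extent.

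The RefSeq promoter windows (GRCm38.p6) hold AF067061 and BC147527. The 250 bases before their annotated starts are shown, chr13:120262845-120263094 and chr13:120300142-120300391, both on the plus strand, because the gene starts of these 2 members differ in position and sequence.
AF067061: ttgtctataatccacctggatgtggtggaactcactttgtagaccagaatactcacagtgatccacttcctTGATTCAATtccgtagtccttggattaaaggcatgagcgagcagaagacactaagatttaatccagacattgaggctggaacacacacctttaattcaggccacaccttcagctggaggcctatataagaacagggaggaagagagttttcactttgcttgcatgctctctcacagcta
BC147527: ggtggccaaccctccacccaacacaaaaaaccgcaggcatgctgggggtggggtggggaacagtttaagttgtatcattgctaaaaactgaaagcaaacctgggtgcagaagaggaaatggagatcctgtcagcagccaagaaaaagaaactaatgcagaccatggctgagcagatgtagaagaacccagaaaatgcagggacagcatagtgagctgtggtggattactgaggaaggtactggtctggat
The capitals mark TGATTCAAT, the first 9 bases of one form of the DUX binding motif, searched on both strands and chosen after the windows had been read. It lay 179 bases before the RefSeq start of AF067061 and was not among the letters of the BC147527 window. That window lies at a gene start 7754 bases from the start codon, and the bases just before the BC147527 coding exon were not searched. Of 32851 mouse promoter windows of 300 bases, 37 (0.113%) hold TGATTCAAT or its reverse complement. The windows of Zscan4c, a 2-cell gene, and of Gm21761, a gene of the same cluster, are among those 37, with the motif 184 and 179 bases before the start. The windows of Zfp352 and Usp17lc, the other 2-cell genes searched, do not hold it. The full DUX motif occurs in 11 windows (0.0335%) and in none of these 6 genes' windows.

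Library totals were between 21059953 and 40448890 reads. The values are reads divided by 1 size factor per library, called normalised reads below, and 1 read is worth between 0.620 and 1.81 of them. The 2 tables were scaled separately, so groups are compared only within a table. Nothing in the labels says that replicates came from separate cultures, so p-values measure the spread between these samples, which may be technical. In bulk RNA, fewer cells that express a gene and less RNA per cell cannot be told apart. Duxf3 and Gm4981, the Dux genes examined as a check of the labels, had 0 reads in all 14 and all 8 libraries and therefore do not separate the groups. All 10 embryonic stem cell markers examined had a mean of at least 50 normalised reads in every group, while the summed level of 6 fibroblast markers was between 29.4 and 265. The 2 libraries of C3+14 and of mCherry, deltC12345+14 replicate 2 and deltC12345delt14 replicate 1 had 0.299% to 0.430% of reads in 1669 high-copy genes, against 1.66% to 2.57% in the others. The kind of library and the group therefore cannot be told apart where C3+14 or mCherry is set against any of the other 5 chimera-table groups.

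Tcstv3 and AF067061 were the abundant members wherever the family was on. Tcstv3 had 45659 and 14812 normalised reads in the FL libraries, 21246 and 20672 in C3+14, and 19442 and 33355 in C1C3a. It had 173 and 167 in C1C3b, 0.754 and 3.38 (1 and 5 reads) in C1C3c, and 0 in both libraries of C1+14 and of mCherry. The first 3 groups overlapped one another, and each lay far above the other 4.

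AF067061 had 64150 and 29709.6 normalised reads in FL, 28104 and 27178 in C3+14, and 19579 and 24054 in C1C3a. It had 757 and 862 in C1C3b, 8.29 and 12.8 (11 and 19 reads) in C1C3c, 0 in both C1+14 libraries, and 3 and 0 reads in the mCherry libraries. Both FL libraries lay above both C3+14 libraries, and those above both C1C3a libraries.

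BC147527 had 7975 and 2593 normalised reads in FL, 6909.5 and 6508 in C3+14, and 8543 and 15161 in C1C3a. It had 43.0 and 42.2 in C1C3b and 0 in both libraries of C1C3c, C1+14 and mCherry. Unlike AF067061, it was highest in C1C3a, whose libraries did not overlap those of FL or C3+14.

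Tcstv1, the least abundant, had 3265 and 846 normalised reads in FL, 1243 and 1344 in C3+14, and 1398 and 1687 in C1C3a. It had 6.14 and 8.45 (7 and 9 reads) in C1C3b and 0 reads in both libraries of the other 3 groups. The FL libraries enclosed those of C3+14 and C1C3a. FL replicates differed 3.86-fold for Tcstv1, 3.08-fold for Tcstv3 and BC147527, and 2.16-fold for AF067061, against at most 1.08-fold between C3+14 replicates for each of the 4.

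**Figure D1:**
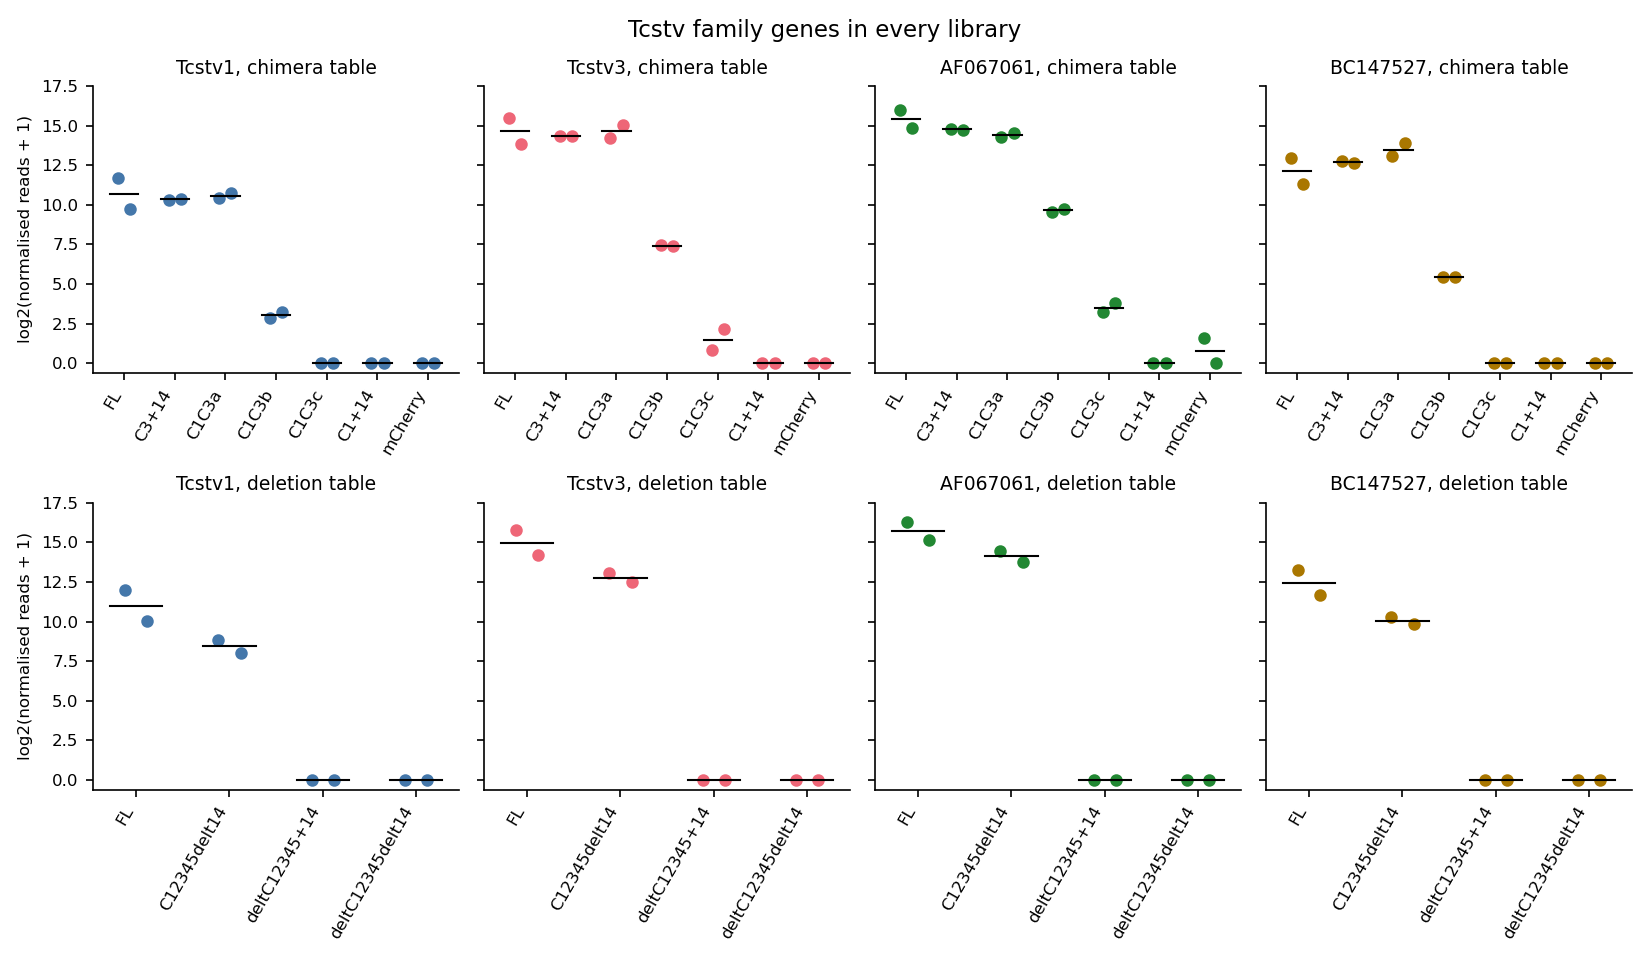
Normalised reads of the 4 Tcstv genes in every library, as log2(normalised reads + 1) on the vertical axis, with the groups of the chimera table in the top row and of the deletion table in the bottom row. Points are libraries and bars are means of 2. FL, C3+14 and C1C3a are high for all 4 genes, C1C3b is intermediate, and C1+14, deltC12345+14 and deltC12345delt14 are at 0.

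Full-length DUX was compared with mCherry to ask whether the family responds to DUX. All 4 genes were higher in FL, in both libraries, where 24.5% of the 21584 genes tested were called higher (limma, Benjamini-Hochberg adjusted p under 0.05 and a log2 difference of at least 1). Reads of the family made up 0.255% and 0.128% of the FL libraries and numbered 3 and 0 in the mCherry libraries. A gene with 0 reads in a library may have had up to 3, and that floor covers counting error only. Against it, Tcstv3 was at least 13282-fold, BC147527 at least 2321-fold and Tcstv1 at least 903-fold higher in FL. AF067061, with 3 mCherry reads in all, was 47417-fold higher, with a 95% counting interval (exact Poisson) of 16225 to 229931. The fitted log2 differences, which depend on the 1 added to each value, were 14.67 (SE 0.47) for Tcstv3, 14.63 (SE 0.42) for AF067061, 12.15 (SE 0.43) for BC147527 and 10.70 (SE 0.51) for Tcstv1, with limma adjusted p-values between 6.38e-12 and 1.19e-09. Kind of library differs between FL and mCherry. Between FL and C1+14, which are of 1 kind, all 4 were also higher in FL (21.5% of all genes were), by at least 1014-fold for Tcstv1 to at least 23157-fold for AF067061.

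The partial constructs C3+14 and C1C3a also switched the family on. All 4 genes were higher than in mCherry under C3+14 (29.6% of genes tested were higher) and under C1C3a (27.4%). C3+14 and mCherry are of the same kind of library, and there Tcstv3 was at least 9207-fold and Tcstv1 at least 568-fold higher. Under C1C3a Tcstv3 was at least 11596-fold and Tcstv1 at least 678-fold higher. All 4 were also higher in C3+14 than in C1+14 (25.9% of genes) and in C1C3a than in C1+14 (23.4%). These comparisons share the mCherry or C1+14 libraries.

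Between the 3 constructs with high levels the differences were small beside those against the controls. For FL against C3+14, limma called 0 of the 4 genes (26.3% of all genes in either direction), 0 had an unadjusted p under 0.05, and edgeR and DESeq2 also called 0. AF067061 was 58.9% ± 1.40 of the FL mean in C3+14 (SD, n = 2), Tcstv3 69.3% ± 1.34, Tcstv1 62.9% ± 3.48 and BC147527 127% ± 5.38. Both FL libraries bear on this count: without FL replicate 1 BC147527 was called lower in FL (log2 difference -1.37, limma adjusted p 0.0170), and without FL replicate 2 Tcstv1 was called higher (1.34, limma adjusted p 0.0279). For C3+14 against C1C3a, limma called 0 of 4 (14.9% of all genes in either direction), with 0 at an unadjusted p under 0.05 and 0 by edgeR or DESeq2.

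BC147527 was the 1 member of 4 called between FL and C1C3a, where 15.6% of all genes were called in either direction and 11% lower in FL. It was 2.24-fold higher in C1C3a (log2 FL minus C1C3a -1.32, SE 0.43, limma adjusted p 0.0391). That SE pools the spread of all 7 groups, and C1C3c, C1+14 and mCherry, with 0 reads of BC147527, add none. With the 2 groups fitted alone the limma adjusted p was 0.265, and with 1 kind of library 0.0867. AF067061 went the other way, 2.15-fold higher in FL without overlap (log2 1.01, SE 0.42, limma adjusted p 0.10). That difference missed the limma threshold and passed it in edgeR (adjusted p 0.00976) and DESeq2 (adjusted p 0.000870). The BC147527 call was lost in DESeq2 (adjusted p 0.188), without FL replicate 2 (limma adjusted p 0.340) and without C1C3a replicate 2 (limma adjusted p 0.271). Tcstv3 and Tcstv1 overlapped between these groups, at 87.3% ± 32.5 and 75.0% ± 9.96 of the FL mean.

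C1C3b gave a low but measurable level of the whole family. It reached 1.72% ± 0.158 of the FL mean for AF067061, 0.806% ± 0.00980 for BC147527, 0.562% ± 0.0133 for Tcstv3 and 0.355% ± 0.0794 for Tcstv1 (SD, n = 2). All 4 were higher than in mCherry (27.6% of genes tested were higher), with AF067061 818-fold higher (95% counting interval 279.8 to 3965) and Tcstv3 at least 74.6-fold. Tcstv1, with 7 and 9 reads, was at least 3.20-fold higher, and its call was lost with a pseudocount of 8 (limma adjusted p 0.0771). Its calls against C1+14 and C1C3c were also lost in edgeR (adjusted p 0.0584 and 0.0999). The similar gene Gm21818 had 851 and 800 reads in C1C3b, and whether any were counted as Tcstv1 was not tested. All 4 were also higher than in C1+14 (17.9% of genes) and C1C3c (7.66%). They were lower than in FL (19.7% of genes were higher in FL), C3+14 (16.5% higher in C3+14) and C1C3a (17.3% higher in C1C3a). The gap to FL was 282-fold for Tcstv1, 178-fold for Tcstv3, 124-fold for BC147527 and 58.0-fold for AF067061. As counted, the members therefore fell by unequal amounts. In C1C3b the similar genes Gm21761 (4210 and 4045 reads) and Gm20767 (3050 and 2598) stood above AF067061 (863 and 918 reads). They were at 1.53% and 1.68% of their FL means, beside 1.72% for AF067061. Whether any of their reads were counted as AF067061 was not tested.

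C1C3c left traces of AF067061 and Tcstv3 and no read of the other members. Gm21761 had 53 and 62 reads there and Gm20767 had 93 and 79. Whether reads of these similar genes were counted in the traces was not tested. AF067061, at 11 and 19 reads, was higher than in mCherry (10.7-fold, 95% counting interval 3.65 to 51.8, limma adjusted p 0.000224) and than in C1+14 (at least 5.22-fold, limma adjusted p 0.000199). Tcstv3, at 1 and 5 reads, was called higher than mCherry (log2 difference 1.47, SE 0.47, limma adjusted p 0.0216) and not higher than C1+14 (limma adjusted p 0.0538), although both controls had 0 reads. Against the floor of 3 reads per library, Tcstv3 was at least 0.908-fold of mCherry, which does not show a rise. The limma calls came to 2 of 4 against mCherry, where 18.3% of genes were higher, and 1 of 4 against C1+14, where 5.37% were. The Tcstv3 call ended in edgeR (adjusted p 0.290), without C1C3c replicate 2 (limma adjusted p 0.240) and without either mCherry replicate (limma adjusted p 0.0787 and 0.0789). With the 2 groups fitted alone the AF067061 calls also ended (limma adjusted p 0.0592 and 0.112). All 4 genes were lower in C1C3c than in FL (22.8% of genes were higher in FL), C3+14 (21.8%) and C1C3a (22.2%).

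C1+14 had 0 reads of the family in 24051548 and 28635782 reads. Against mCherry, limma, edgeR and DESeq2 each called 0 of the 4 genes (18.3% of all genes in either direction in limma), and 0 had an unadjusted p under 0.05. Expression below 3 reads per library was not detectable at this depth.

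**Figure D2:**
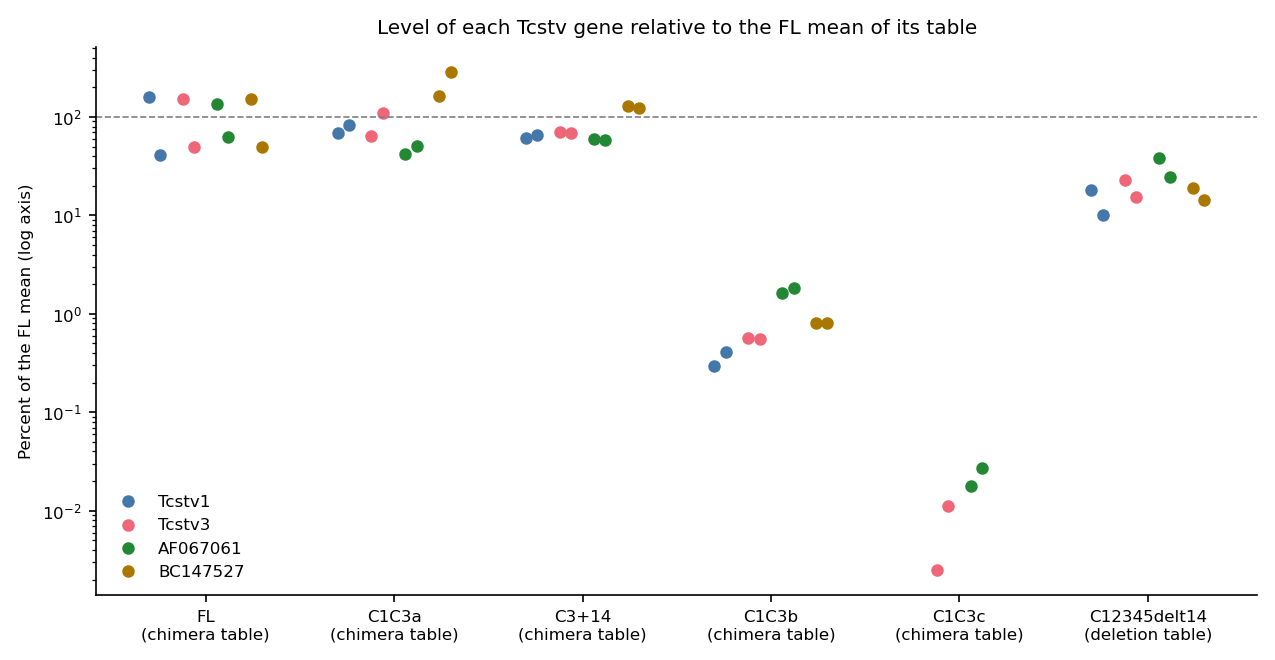
Level of each Tcstv gene in each library as a percent of the mean of the 2 FL libraries of the same table, on a log axis, with the dashed line at 100%. Groups with reads in both libraries of a gene are drawn, so C1C3c lacks Tcstv1 and BC147527. BC147527 is the highest of the 4 in C1C3a and C3+14, and AF067061 is the highest in C1C3b, C1C3c and C12345delt14.

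In the deletion table the question was which parts of DUX the family needs. C12345delt14 kept all 4 genes on. AF067061 had 22242 and 14117 normalised reads there against 78899 and 37162 in FL, and Tcstv3 8611 and 5779 against 56157 and 18528. BC147527 had 1232 and 927 against 9809 and 3243, and Tcstv1 463 and 256 against 4016 and 1059. Both C12345delt14 libraries lay below both FL libraries for each gene. This is a description only, because the share of all genes that separate in this way is not given here. The levels were 31.3% ± 9.90 of the FL mean for AF067061, 19.3% ± 5.36 for Tcstv3, 16.5% ± 3.30 for BC147527 and 14.2% ± 5.77 for Tcstv1 (SD, n = 2).

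The log2 differences of C12345delt14 from FL were -1.61 (SE 0.39) for AF067061, -2.19 (SE 0.50) for Tcstv3, -2.40 (SE 0.54) for BC147527 and -2.58 (SE 0.66) for Tcstv1. Limma called 0 of the 4, with adjusted p-values between 0.0685 and 0.0823, in a comparison where 0.62% of 19833 genes were called lower. All 4 had an unadjusted limma p under 0.05, and the share of all genes with such a p is not given here. EdgeR called 0 of the 4 and DESeq2 called 1, BC147527 (adjusted p 0.0365). Over all genes and both directions, limma called 190, edgeR 467 and DESeq2 1293. The limma number over all genes was 1172 with a pseudocount of 8 and 888 with the 2 groups fitted alone. Limma called all 4 with a pseudocount of 8, with the 2 groups fitted alone, and without FL replicate 2, with adjusted p-values of 0.0133 to 0.0368 over those settings, so the call depends on the setting and on that library.

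Both deltC groups had 0 reads of every member in 27326760 to 32812102 reads per library. All 4 genes were lower than in FL in deltC12345+14 (20% of genes tested were lower) and in deltC12345delt14 (20.3%), by at least 17537-fold and at least 15092-fold for Tcstv3. All 4 were also lower than in C12345delt14, in deltC12345+14 (11.5% of genes) and in deltC12345delt14 (12.6%), by at least 169-fold and 145-fold for Tcstv1. Between the deltC groups limma called 0 of 4 and 0 of 19833 genes (0%), edgeR and DESeq2 also called 0 of 4, and with every value at 0 the unadjusted p was 1 for each member. Each deltC group has 1 library of each kind, and both were at 0.

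The make-up of the family, as counted, differed between constructs. Per kb of exonic length, AF067061 made up 45.4% ± 6.35 of the summed level of the 4 genes in FL (SD, n = 2), 38.1% ± 0.0813 in C3+14, 27.5% ± 4.64 in C1C3a, 69.7% ± 2.30 in C1C3b and 55.9% ± 1.02 in C12345delt14. Tcstv3 made up 48.7% ± 5.42, 52.0% ± 0.113, 57.9% ± 3.85, 26.5% ± 2.18 and 40.1% ± 0.847 in the same order. AF067061 and Tcstv3 changed places between the 2 FL libraries, so their order per kb in FL was within the spread. BC147527 came next and Tcstv1 last in every library of these 5 groups.

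The ratio of BC147527 to AF067061, per kb, spread most between the groups. It was 0.384 and 0.555 in the C1C3a libraries, 0.216 and 0.211 in C3+14, 0.109 and 0.0768 in FL, 0.050 and 0.0431 in C1C3b and 0.0488 and 0.0578 in C12345delt14. C1C3a, C3+14 and FL did not overlap one another, and FL did not overlap C1C3b or C12345delt14. An exact permutation test of 2 libraries against 2 cannot give a p below 0.333, no other test was run on the ratios, and they are given as a description. A ratio within a library does not depend on its size factor, but it shows unequal change as counted, not which gene moved.

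**Figure D3:**
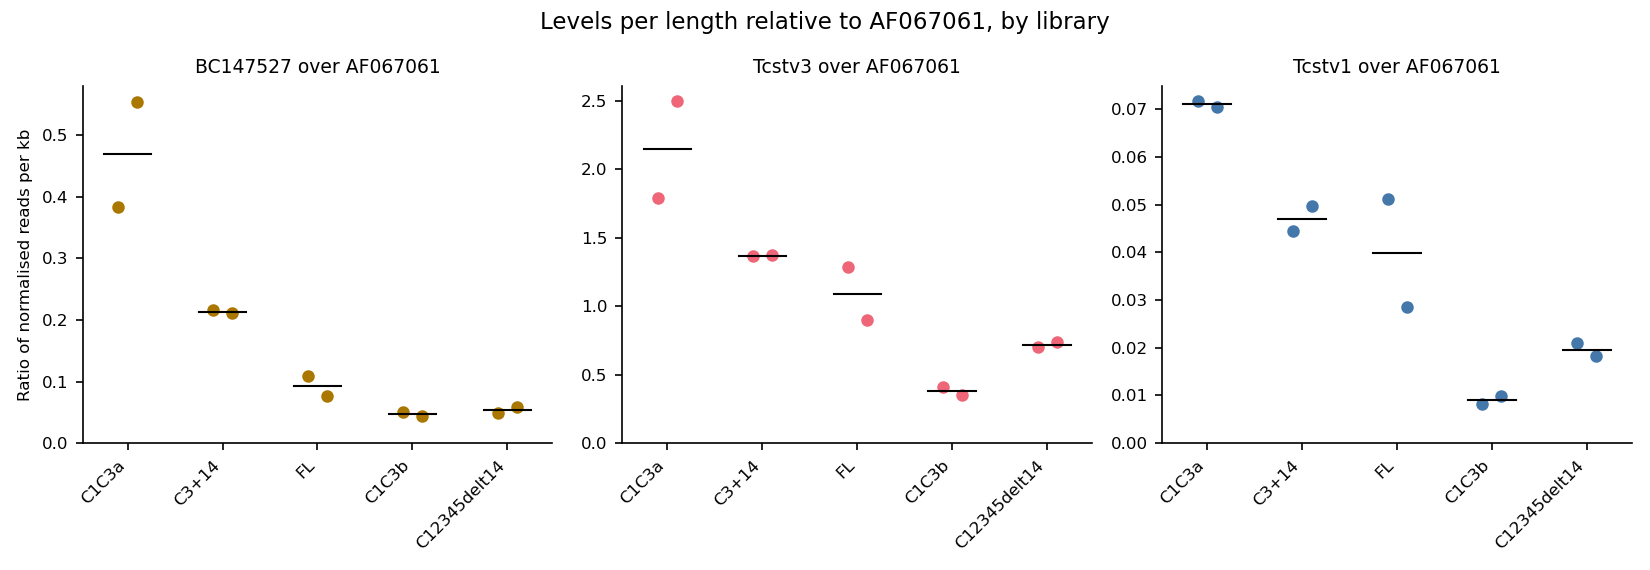
Ratio of the normalised reads per kb of BC147527, Tcstv3 and Tcstv1 to those of AF067061 in each library, with bars for the mean of 2 libraries and a linear axis from 0 in each panel. All 3 ratios are highest in C1C3a and lowest in C1C3b, except that BC147527 over AF067061 overlaps between C1C3b and C12345delt14.

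The members sit among other genes that responded. Within 500 kb of a member the tables list 40 further genes, of which 27 were tested in the chimera table, and 14 were higher (24.5% of all genes) and 4 lower (19.6%) in FL than in mCherry. The 8 with a coding sequence at least 70% identical to a member's, AF067063, D13Ertd608e, Gm21761, B020031M17Rik, Gm20767, Gm21818, Gm21762 and Gm21731, were all higher. Of the other 19 tested, 6 were higher and 4 lower. The 6 are processed pseudogenes (Gm21358, Gm37619, Gm21181, Gm20769, Gm20763 and Gm20900). Gm20900 lies inside BC147527 on the opposite strand, and whether the counting used strand is not given in the sources used here. Gm21181 lies inside the related gene Gm21761 and Gm20769 inside Gm20767, each on the same strand. Of the 50-base stretches of these 2 pseudogenes 100% occur in another gene, so their separate levels are uncertain. Hmgcs1, an enzyme of cholesterol synthesis, was lower in FL, with a log2 difference of -1.24 (SE 0.16 and a limma adjusted p of 1.75e-05), as was 4833420G17Rik (-1.35). Paip1, a translation factor partner, had a log2 difference of 0.90 and Zfp131, a zinc finger gene, 0.53, both under the 2-fold limit. Tmem267 and Gm9752 were the other 2 lower genes (log2 -1.51 and -4.86). The remaining genes of the interval that reached 50 normalised reads in at least 2 libraries, Gm20784, Gm36079, Gm21188 and Gm21378, were not called in FL against mCherry. In C1C3a against mCherry, Gm36079 and Gm21188 were called higher (log2 4.90 for each, limma adjusted p 0.000143 and 0.000183). Gm20784 and Gm21378 were not called there, where 27.4% of all genes were higher.

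Among the related genes B020031M17Rik shares the fewest 50-base stretches with other genes (2.97%, against 34.1% to 89.6% for the other 7). It had 23070 and 13137 normalised reads in FL, 43677 and 42499 in C3+14, 34039 and 39224 in C1C3a, 390 and 326 in C1C3b, 18.1 and 6.76 in C1C3c, and 0 reads in C1+14 and mCherry. It was lower in FL than in C3+14 (log2 -1.31, SE 0.34, limma adjusted p 0.00817) and than in C1C3a (-1.07, SE 0.34, limma adjusted p 0.0364). In all, 5 of the 8 related genes were lower in FL than in C3+14 (16.8% of all genes were) and 5 of 8 lower than in C1C3a (11% of all genes were). D13Ertd608e stood at 487% of the FL mean in C3+14 and 450.3% in C1C3a. D13Ertd608e, Gm21762, AF067063 and Gm21731, counted in both comparisons, share 89.6%, 77.5%, 70.7% and 70.6% of their 50-base stretches with other genes. Their separate levels are uncertain. FL and C3+14 also differ in kind of library. Gm20767, at 74.7% and 61.1%, and Gm21761, at 101% and 78.5%, were not called in either comparison.

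**Figure D4:**
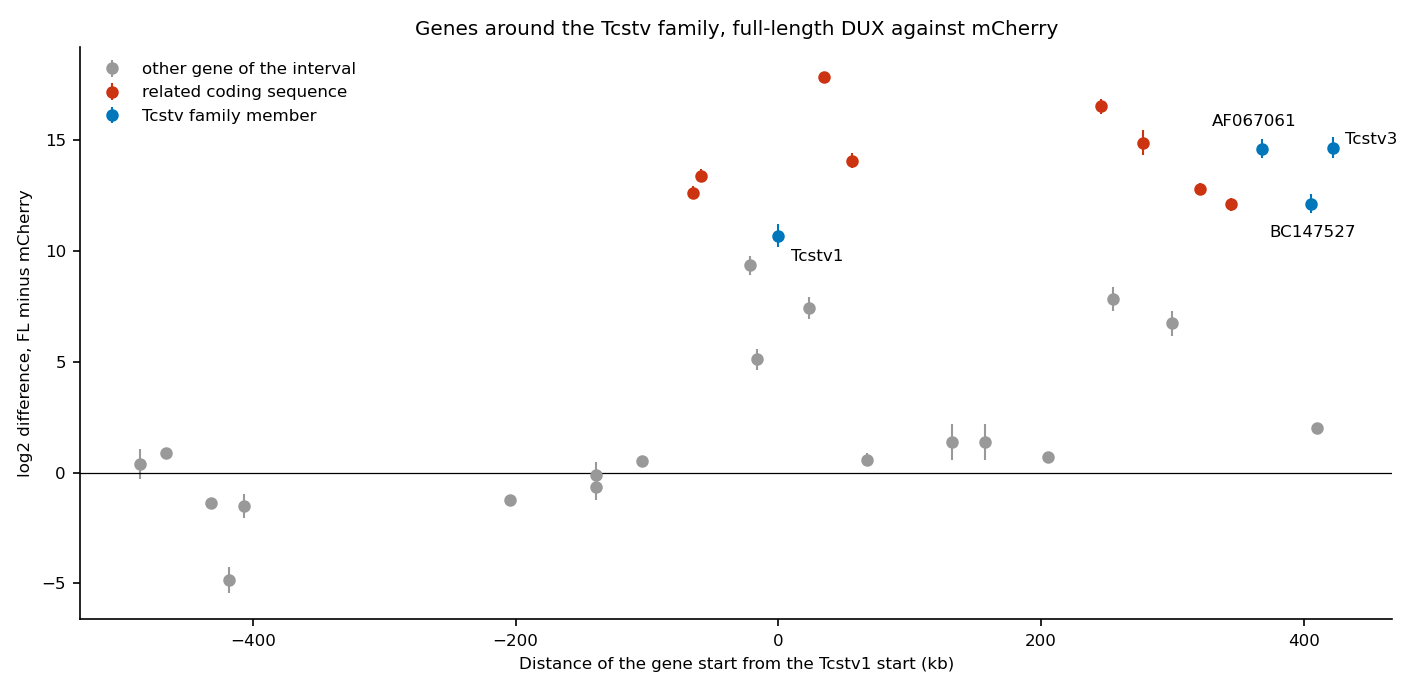
Fitted log2 difference between FL and mCherry (limma, bars are SE) for the tested genes within 500 kb of a member, against the distance of the annotated gene start from that of Tcstv1 in kb. The 4 members (blue) and the 8 genes of related coding sequence (red) lie between 10.70 and 17.85, and genes more than 100 kb to the left of Tcstv1 lie below 1.

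Most other genes of the 2-cell embryo examined were also higher in FL than in mCherry. Of a list of 41 names, 39 were found and tested, 4 of which are related genes of the cluster above. The list was chosen with earlier results of these data known, so its counts and medians are a description. In FL against mCherry 38 were higher and 1, Pramef12, was lower. The median log2 difference of the list was 13.40, or 12.98 with genes at the floor set to their bound, against 12.44 at the bound for the 4 Tcstv genes and 0.09 for all genes tested. Against mCherry, 35 of 39 were higher and 2 lower in C1C3b (17.1% of all genes were lower), 28 were higher and 2 lower in C1C3c (10.5%), and 9 were higher and 1 lower in C1+14 (12.4% and 5.95% of all genes). In C1+14, with 9 list genes higher, and in C1C3c, with 28, the counts for the Tcstv genes were 0 and 2 of 4. Against FL in the deletion table, the median log2 difference of the list was -1.39 in C12345delt14, beside -2.30 for the Tcstv genes. Limma called 0 of the 39 there, beside 0.62% of all genes lower. An unadjusted limma p under 0.05 was found for 27, all lower in C12345delt14, and its share over all genes is not given here. EdgeR called 9 lower and DESeq2 22, beside 467 and 1293 of all genes in either direction. In each deltC group 38 of 39 were lower and 1 higher than in FL, where 18.4% (deltC12345+14) and 18.8% (deltC12345delt14) of all genes were higher.

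Zscan4c, which codes for a zinc finger protein of telomere maintenance, had 847976 and 465303 normalised reads in FL, 440221 and 483624 in C3+14 and 175352 and 258579 in C1C3a. It was higher in FL than in C1C3a (log2 1.56, SE 0.38, limma adjusted p 0.00898), the direction of AF067061. Zfp352, a zinc finger gene, had 7784 and 4634 in FL and 22929 and 29459 in C1C3a, and was lower in FL (log2 -2.11, SE 0.40, limma adjusted p 0.00210), the direction of BC147527. Usp17lc, a deubiquitinase, was also lower in FL than in C1C3a (log2 -1.30, SE 0.28, limma adjusted p 0.00495). Arg2, the mitochondrial arginase, was lower as well (log2 -2.42, SE 0.43, limma adjusted p 0.00132). Tdpoz1 had a log2 difference of -1.09 (limma adjusted p 0.137).

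Over the 14 libraries of the chimera table the members' log2 levels correlated pairwise with Pearson's r between 0.956 (Tcstv1 with AF067061) and 0.994 (Tcstv3 with BC147527). These libraries fall into groups that are on or off and share depth and cell line, so r is a description only. The 6 genes whose log2 level followed the mean of the members most closely, of 16363 examined, were Gm11237 (r 0.996), Gm428 (0.996), Gm11239 (0.995), B020004J07Rik (0.995), Gm11236 (0.995) and Gm5788 (0.995). In the deletion table their r was between 0.991 and 0.998 over 8 libraries. In all, 50 genes had an r above 0.99. Gm11237, Gm428, Gm11239 and Gm11236 lie within chromosome 4 positions 73622984 to 73687558, and 95.2% to 100% of their 50-base stretches are shared, so their separate levels are uncertain.

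Summed levels of markers of other cell types varied between these groups as well. The summed level of 6 primitive endoderm markers was 92.8 and 121 in FL, 628 and 601 in C3+14, 648 and 364 in C1C3a, 603 and 641 in C1C3b, 256 and 245 in C1C3c, 186 and 215 in C1+14 and 68.6 and 78.9 in mCherry. In the chimera table that of 6 trophectoderm markers was between 397 in C1C3c and 1044 in C3+14, and that of 5 neural markers between 720.2 in C1C3c and 2812 in mCherry. The 6 fibroblast markers summed to 161 and 89.3 in FL, where Thy1 was the highest and Dcn and Twist2 had 0 reads, to 106 and 123 in C3+14, 117 and 118 in C1C3a, 72.8 and 105 in C1C3b, 29.4 and 33.8 in C1C3c, 58.5 and 99.2 in C1+14 and 60.7 and 78.9 in mCherry. Between C3+14 and C1C3b, which differ in kind of library, the Tcstv genes were 34.2-fold (AF067061) to 177-fold (Tcstv1) lower in C1C3b. The part of cells of other types in the Tcstv levels was not tested.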

How the data were processed

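Poly(A) RNA was sequenced with a stranded Illumina kit, per the labels' protocols. The deposited values are a signal, named normalized counts per the file headers. In each library they were whole multiples of 1 step (100% of values, tolerance 1e-06), so the authors scaled whole reads by 1 factor a library. Trim Galore 0.5.0, FastQC, DESeq2 and build mm10 are named in the submitters' processing notes. The aligner, counter and annotation are not given in the sources used here. Symbols and coordinates are from GENCODE M21. Genes reaching 10 in 2 or more libraries were tested with limma 3.58.1 (R 4.3.3, lmFit and eBayes with a trend) on log2(value + 1), all groups of a table sharing 1 spread, and counted as called where the adjusted p (Benjamini-Hochberg) fell below 0.05 with at least a 2-fold change. On that scale the change of low genes is understated. The fit was run on simulated data in which only genes with a clear mCherry level were changed. Genes at the floor in mCherry, as the members are, were not covered. A group with 3 reads or fewer in each library is at the floor. A fold against a group with 0 reads in both libraries uses 3 reads per library as a bound. A fold against 1 to 3 reads (AF067061 in mCherry) uses the observed mean, with its counting interval. Alternatives were pseudocounts of 0.1 and 8, no filter, quantile normalization, edgeR 4.0.16 and DESeq2 1.42.0 on the recovered reads, 2-group fits, a replicate block, leaving out each replicate, and, chosen after seeing the data, library kind as a term and 1 kind only. Kind of library was read from the share of reads in genes of which at least 50% of 50-base stretches occur in 20 or more genes. Named genes are the 4 members, genes within 500 kb that reach 50 in 2 libraries, the 6 most alike by Pearson's r, and 9 genes of a fixed list of the 2-cell embryo. The members and lists were chosen with earlier results of these data known.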

Additional observations from a re-analysis of the deposited data

How the results depend on the processing

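Of 341 values of the number of Tcstv genes called under another setting, 315 kept the number reported, and of 1214 log2 differences 1163 kept direction and side of the threshold. For FL against C3+14 (0 called), leaving out 1 replicate gave 0 to 1. For FL against C1C3a (1 called), a pseudocount of 0.1, no filter, the 2-group fit and 1 kind of library gave 0, a pseudocount of 8 and edgeR gave 2, and leaving out 1 replicate gave 0 to 1. For C1C3c against C1+14 (1 called), a pseudocount of 0.1 and quantile normalization gave 2, the 2-group fit 0, and leaving out 1 replicate 1 to 2. For C1C3c against mCherry (2 called), a pseudocount of 8, quantile normalization and edgeR gave 1, the 2-group fit 0, and leaving out 1 replicate 1 to 2. For C1+14 against mCherry (0 called), quantile normalization gave 1 and leaving out 1 replicate 0 to 1. For C12345delt14 against FL (0 called), a pseudocount of 8 and the 2-group fit gave 4, DESeq2 1, and leaving out 1 replicate 0 to 4. The cause was not tested.

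Of the log2 differences, 8 changed sign, all when 1 replicate was left out. For FL minus C3+14, Tcstv1 ran from -0.61 without FL replicate 1 to 1.34 without FL replicate 2, Tcstv3 from -0.50 to 1.12 and BC147527 from -1.37 to 0.25 for the same libraries. For FL minus C1C3a, Tcstv1 ran from -0.86 without FL replicate 1 to 1.09 without FL replicate 2, and Tcstv3 from -0.78 to 0.84. Without C1C3a replicate 1 these became -0.02 and -0.36. For C3+14 minus C1C3a, Tcstv3 ran from -0.67 without C1C3a replicate 1 to 0.11 without C1C3a replicate 2.

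Over all genes, the number called for C12345delt14 against FL (190) ran from 30 with a pseudocount of 0.1 or no filter to 1293 with DESeq2, was 45 with the replicate block, 525 with library kind as a term and 888 in the 2-group fit, and ran from 0 to 1392 when 1 replicate was left out. The 2-group fit gave 1038 for FL against C1C3a (3375), 496 for C1C3b against C1C3c (2415) and 0 for C1C3c against C1+14 (1690), where 1 kind of library gave 1031. Between the deltC groups (0) the settings gave 0 to 7. Quantile normalization moved the share of higher among called genes by over 10 points in 19 of 26 comparisons and edgeR in 1. In FL against mCherry 55.5% of called genes were higher, or 41.2% after quantile normalization, which moved the median log2 difference of all genes from 0.09 to -0.27, and by at most 0.48 in any comparison.

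Replicate numbers were no pairs: deviations of libraries with the same number correlated with r from -0.574 to 0.135, the lowest between the deltC groups, whose kinds of library are crossed. The replicate block left the number of Tcstv genes called the same in all 27 comparisons, for example 4 of 4 in FL against mCherry. A lone library left in a group is assumed to vary like the other groups. Depth limits Tcstv1 in C1C3b and Tcstv3 in C1C3c, which rest on 16 and 6 reads.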
